A study of Mus musculus with 4 samples.

Results

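The genes described here are 10 protein-coding genes of the basement membrane. They are the laminin chains Lama1, Lama4, Lama5, Lamb1, Lamb2 and Lamc1, the nidogens Nid1 and Nid2, and the heparan sulfate proteoglycans Hspg2 (perlecan) and Agrn (agrin). They were chosen by symbol, and all 10 were found among the 34615 gene rows. RNA was sequenced from basal cells of mouse mammary outgrowths. In 2 KO libraries the labels give the genotype miR205fl/flmTmGfl/fl cre+, and in 2 WT libraries WTfl/flmTmGfl/fl cre+. Donor mammary cells of both genotypes carried the RosamTmG reporter, were given a Cre adenovirus (Ad-cre) and were transplanted into SCID-Beige hosts aged 3 weeks. SCID-Beige mice lack T and B cells and have poor natural killer cell function. Outgrowths were collected after 8 weeks and pooled (the series text gives 40), and GFP-positive, CD24-positive cells with high CD49f were sorted. Cre exposure, reporter and transplantation are therefore shared by KO and WT, and the floxed microRNA-205 alleles are what differs. The labels do not say whether the libraries of 1 genotype are separate pools of animals, so p-values here gauge library-to-library spread that may be technical.

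A basement membrane is a thin sheet of matrix under an epithelium. Laminins are trimers of an alpha, a beta and a gamma chain that assemble into a network on the cell surface, nidogens bind the gamma chain and type IV collagen, and perlecan and agrin add heparan sulfate chains that hold growth factors. In the mammary gland the basal, or myoepithelial, layer lies on this sheet, and laminin supports the polarity and milk response of the luminal cells. MicroRNAs lower their target transcripts by pairing of the seed, bases 2 to 8, with sites in the 3' untranslated region (UTR).

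The deleted microRNA and the single site for it found among the 10 genes are shown because the KO allele removes this microRNA. In the microRNA the capitals mark the seed, and in the Lamc1 transcript they mark the bases that match it and the A that follows them.
mmu-miR-205-5p: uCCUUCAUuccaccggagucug
Lamc1 site: gtactcatgtttctATGAAGGAaatcttt
The microRNA sequence is from RefSeq (GRCm38.p6, chr1:193507503-193507524, minus strand). The Lamc1 stretch shown lies in the longest 3' UTR of the gene in GENCODE M21 (GRCm38, chr1:153221089-153221117, minus strand). The site in that stretch starts at base 370 of 2551. It is an 8mer, ATGAAGGA, which contains the 7mer-m8 ATGAAGG, searched on the transcript strand alone. The other 9 genes had neither string in their longest 3' UTR, which ran from 110 bases in Lamb2 to 2202 in Nid1. Among 12643 tested protein-coding genes with a 3' UTR, 13.7% held the 7mer-m8 and 5.07% the 8mer. Among the 2042 with a 3' UTR of 2000 to 3000 bases, 19.7% held the 7mer-m8 and 7.49% the 8mer. A match is a description of the sequence, not proof of a site in use.

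The libraries held 60030932 and 47953972 gene counts in KO and 53067076 and 57650462 in WT. KO replicate 2 stood apart. It had a count for 12679 genes, against 18897 in KO replicate 1 and 18139 and 18027 in WT. CPM is the count of a gene scaled to the size of its library. Of the 4756 genes that WT expressed at 1 to 10 CPM, 32.6% went undetected in KO replicate 2 and 0.399% in KO replicate 1. Above 50 CPM, where 9 of the 10 genes lie, no gene had 0 counts in either KO library, but the median distance from the WT mean on the log2 scale was 0.63 in KO replicate 2 and 0.17 in KO replicate 1 for genes at 50 to 100 CPM. Mir205 itself had 0 counts in each of the 4 libraries, so the groups rest on the labels. Values below are CPM after TMM scaling of library size, and the fold changes of the 10 genes are given with and without KO replicate 2. Basal markers were abundant, with Acta2, smooth muscle actin, at a mean of 2698 CPM and Itga6, which encodes the sorted antigen CD49f, at 2341 CPM. Krt14 was listed as a basal marker but was not found in the files.

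The gamma 1 chain of laminin was the most abundant transcript of the set in every library. The 10 genes together had 3300 and 3631 CPM in KO and 2991 and 3324 CPM in WT, or 0.346% and 0.316% of unscaled gene counts in KO and 0.318% and 0.343% in WT. The summed CPM averaged 3466 ± 234 in KO and 3158 ± 236 in WT (SD, n = 2 each), and the KO and WT libraries overlapped. Per kb of annotated exon, which allows levels of different genes to be compared, Lamc1 had 152 and 169 CPM per kb in KO and 134 and 147 in WT. Lamc1 encodes the gamma 1 chain, which is part of most laminin trimers. Hspg2 came next with 57.7 and 56.9 CPM per kb in KO and 45.4 and 51.0 in WT, and did not reach the range of Lamc1 in any library.

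Below perlecan the order was less distinct. The means over 4 libraries were 33.0 CPM per kb for Nid1, 27.0 for Lama5, 24.9 for Lamb1, 22.7 for Agrn, 14.8 for Lama1 and 14.03 for Lamb2. Each of these 6 genes overlapped in range with its neighbour in that order, so these libraries do not settle the order of neighbours. Genes further apart could be told apart: Lamb2, at 12.1 to 15.3 CPM per kb, lay below the ranges of Agrn, Lamb1, Lama5 and Nid1. Lama4 followed at 6.75 and Nid2 at 1.03 CPM per kb, and each lay below the gene before it in all 4 libraries. Lengths are unions of all annotated exons of a gene. With the longest transcript in their place Lama4 had 13.5 CPM per kb and Lamb1 42.7, and 5 of 10 ranks stayed as they were. By coding length Nid1, at 61.4 CPM per kb, ranked above Hspg2, at 57.4, so the second place of Hspg2 depends on the length used.

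**Figure D1:**
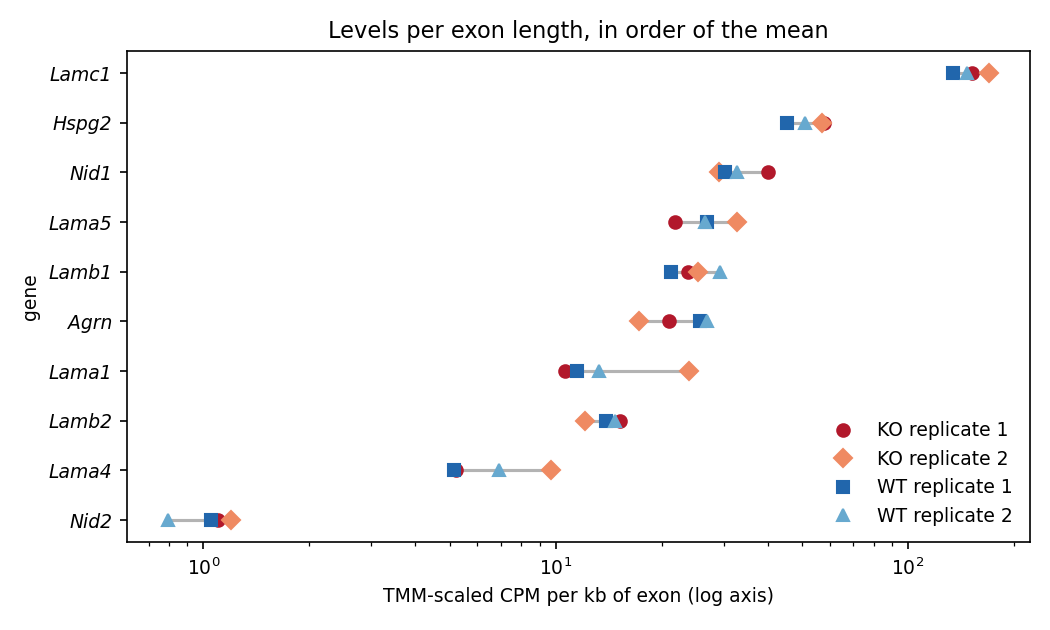
Levels of the 10 basement membrane genes in CPM per kb of exon (log axis), with a point for each of 2 KO and 2 WT libraries and a grey line over their range. Lamc1, at 134 to 169, and Hspg2, at 45.4 to 57.7, stand clear of the rest, and Nid2 is lowest.

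No gene of the set passed the test between genotypes. In the edgeR quasi-likelihood test, 0 of 10 had a Benjamini-Hochberg adjusted p under 0.05 over the 15364 genes tested, where 0% of all genes did. At an unadjusted p under 0.05 there were also 0 of 10, against 0.957% of all genes. DESeq2 called 0 of 10, against 0.0288% of all genes, and limma voom 0 of 10, against 0%. The unadjusted p-values ran from 0.0867 for Agrn to 0.92 for Lama5. Without KO replicate 2, 0 of 10 were called as well, again with 0% of all genes, and 0 of 10 had an unadjusted p under 0.05, against 2.8% of all genes.

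By fitted log2 fold change, 7 of the 10 genes were positive in KO over WT and 3 negative, with a median of 0.16. The median of all tested genes was -0.14, with 42.8% positive. The 10 genes are mostly abundant and long, however, and the 3634 tested genes with a mean of 50 CPM or more had a median of 0.13 and 63.6% positive. For the 2307 of those with 5 kb or more of exon the median was 0.10, with 60.6% positive. Without KO replicate 2 the split of the 10 genes was 5 positive and 5 negative, with a median of 0.00, while the long abundant genes had a median of -0.03.

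**Figure D2:**
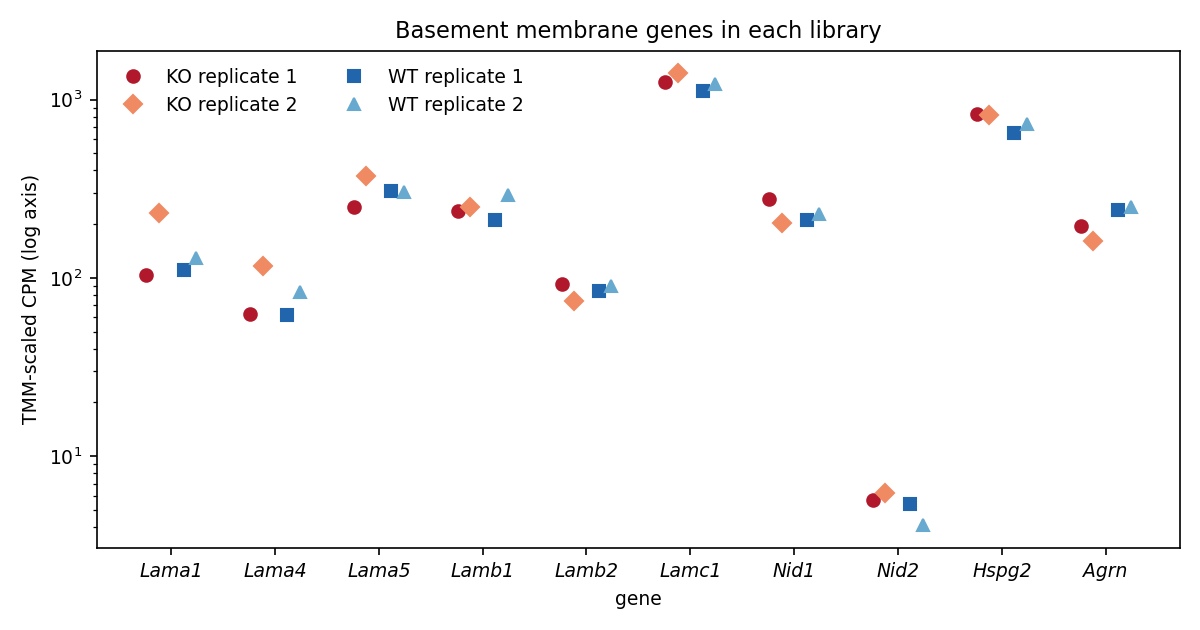
TMM-scaled CPM (log axis) of each of the 10 genes in 2 KO and 2 WT libraries, 1 point per library. The Hspg2 points of KO, at 826 and 815 CPM, lie above those of WT, the Agrn points of KO, at 195 and 160 CPM, lie below, and the Lama1 and Lama4 points of KO replicate 2 stand away from the other 3 libraries.

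The heparan sulfate proteoglycans parted the libraries in opposite directions by TMM scaling. Hspg2 (ENSMUSG00000028763, chromosome 4) encodes perlecan, a very large proteoglycan that binds laminin, nidogen and collagen. It had 826 and 815 CPM in KO and 649 and 730 CPM in WT. By TMM scaling each KO library was above each WT library, as in 23.2% of tested genes with a mean of 50 CPM or more. By total count KO replicate 2 had 709 CPM and WT replicate 2 had 754 CPM, so the groups overlapped. They also overlapped by upper quartile scaling. Its fitted log2 fold change was 0.25 ± 0.18 (SE), and 0.26 ± 0.13 without KO replicate 2, and neither passed the edgeR test (adjusted p of 0.999 and 1.0).

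Agrn (ENSMUSG00000041936, chromosome 4) encodes agrin, known for clustering acetylcholine receptors at the nerve-muscle junction through its receptor Lrp4, and for binding dystroglycan in epithelia. It had 195 and 160 CPM in KO and 239 and 250 CPM in WT, with both KO libraries below both WT libraries. The fitted log2 fold change was -0.46 ± 0.22, and -0.32 ± 0.17 without KO replicate 2, with edgeR adjusted p-values of 0.999 and 1.0. By TMM scaling 11.3% of tested genes with a mean of 50 CPM or more also had both KO libraries below both WT libraries. Agrn was the only one of the 10 genes whose KO and WT libraries stayed apart under all 4 scalings tried (TMM, RLE, upper quartile and total count). The share of all tested genes that stayed apart under all 4 was not counted, and the scalings share the same libraries. By total count alone it had 204 and 139 CPM in KO and 254 and 258 CPM in WT.

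The ratio of Hspg2 to Agrn within a library does not depend on scaling. Per kb it was 2.75 and 3.30 in KO and 1.77 and 1.90 in WT, a mean of 3.03 ± 0.39 in KO and 1.83 ± 0.09 in WT (SD, n = 2 each). The groups did not overlap, and KO replicate 1 alone showed the same order. The ratio of Lamc1 to Lamb1 plus Lamb2 also parted the groups, narrowly, at 3.88 and 4.53 in KO and 3.82 and 3.34 in WT. The other 5 of 7 ratios overlapped. The Hspg2 to Agrn ratio was chosen after the values were seen and was not tested, and with 2 libraries a group an exact permutation test could not pass a threshold of 0.05.

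**Figure D3:**
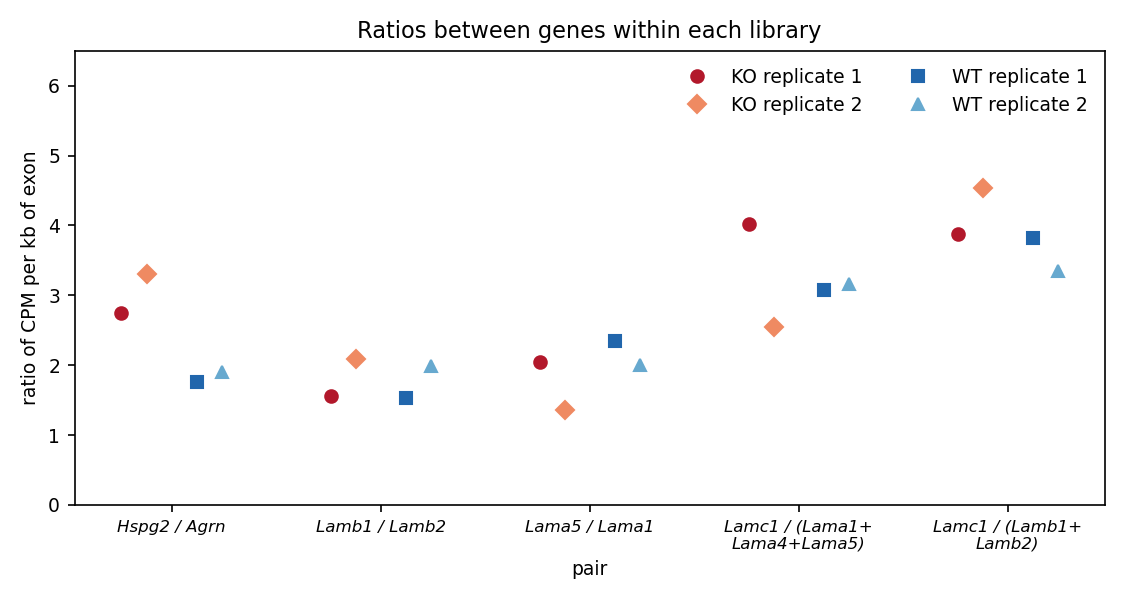
Ratios of CPM per kb of exon between basement membrane genes within each of 2 KO and 2 WT libraries, 1 point per library. The Hspg2 to Agrn ratio is 2.75 and 3.30 in KO and 1.77 and 1.90 in WT, the Lamc1 to beta chain ratio parts the genotypes narrowly, and the Lamb1 to Lamb2 and Lamc1 to alpha chain ratios overlap.

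Lamc1 (ENSMUSG00000026478, chromosome 1), the gene with the miR-205 site, was slightly higher in KO by TMM scaling. It had 1254 and 1402 CPM in KO and 1111 and 1219 CPM in WT. The groups did not overlap, but the lower KO library lay only just above the higher WT one. The log2 fold change was 0.19 ± 0.18, and 0.11 ± 0.12 without KO replicate 2, with edgeR adjusted p-values of 0.999 and 1.0. By total count scaling Lamc1 had 1313 and 1220 CPM in KO and 1181 and 1258 CPM in WT, and the groups overlapped. Over the 641 tested genes with the 8mer the median log2 fold change was -0.01, against -0.14 for all tested genes, and without KO replicate 2 it was 0.01, against -0.02 for all tested genes. Tested genes with a mean of 50 CPM or more had a median of 0.13, and 0.01 without KO replicate 2. The genes with the 8mer are protein-coding and were not matched to all tested genes for abundance or UTR length. The differences between these medians were not tested.

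Of the 10 genes, 3 had both KO libraries above both WT libraries by TMM scaling (Lamc1, Nid2 and Hspg2), 1 had both below (Agrn) and 6 overlapped. Among all tested genes 13.2% lay above and 19.2% below, or 32.4% apart in either direction. Among those with a mean of 50 CPM or more 23.2% lay above and 11.3% below. These shares are for TMM scaling. By total count or upper quartile scaling, 0 of the 10 lay above and 1 below, and the share of all tested genes was not counted under those scalings.

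The 3 laminin alpha chains set KO replicate 2 apart from KO replicate 1. The alpha chain decides which receptors a laminin binds. Lama1 (ENSMUSG00000032796, chromosome 17), which encodes the chain of the early embryonic laminin, had 103 and 232 CPM in KO replicates 1 and 2 and 111 and 128 CPM in WT. KO replicate 2 was the highest library and KO replicate 1 the lowest, so the WT values lay between them. The log2 fold change was 0.49 ± 0.43 with both KO libraries and -0.21 ± 0.21 without KO replicate 2.

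Lama4 (ENSMUSG00000019846, chromosome 10), whose chain is typical of vessel walls and other mesenchymal basement membranes, had 63.0 and 117 CPM in KO and 62.3 and 83.5 CPM in WT. KO replicate 1 lay between the WT libraries, close to the lower, and KO replicate 2 was above both. Lama5 (ENSMUSG00000015647, chromosome 2), the widespread alpha chain of adult epithelia, had 248 and 373 CPM in KO and 307 and 302 CPM in WT. Here too KO replicate 1 was lowest and KO replicate 2 highest, around WT libraries that differed little from each other. The log2 fold changes were 0.30 ± 0.41 for Lama4 and 0.03 ± 0.26 for Lama5, and without KO replicate 2 they were -0.21 ± 0.27 and -0.29 ± 0.16.

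Among the 3 alpha chains, per kb, Lama5 made up 57.9% and 49.3% in KO and 61.9% and 56.7% in WT. Lama1 made up 28.3% and 36.1% in KO and 26.3% and 28.4% in WT, and Lama4 the remainder. Lama5 led in every library, and the shares of KO replicate 1 lay within the WT range. Lama3, the alpha chain of the hemidesmosome laminin, stood above all 3 at a mean of 94.3 CPM per kb.

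Endothelial markers were read beside Lama4, since vessels make this chain. Of 13 listed, 12 were in the files, and their summed level was 244 and 145 CPM in KO and 175 and 311 CPM in WT. None of the 12 was at 0 in every library, and Cldn5 had 0 counts in KO replicate 2. KO replicate 2 had the most Lama4 and the lowest endothelial sum, while WT replicate 2 had the next most Lama4 and the highest sum. The luminal, adipocyte and immune sums, given with the processing below, were highest in KO replicate 2. In that library Fabp4 had 139 of the 226 CPM of the adipocyte sum, and Cd74 had 289 of the 319 CPM of the immune sum. Elf5 (luminal), Adipoq, Plin1 and Cidec (adipocyte), and Adgre1 and Cd52 (immune) had 0 counts there. The sum over 7 pericyte markers was 114 and 122 CPM in KO and 81.0 and 196 CPM in WT, with Pdgfrb, Cspg4 and Kcnj8 at 0 counts in KO replicate 2. Fibroblast markers, 11 of 12 in the files, summed to 2780 and 2733 CPM in KO and 2704 and 2564 CPM in WT, most of it Postn at a mean of 1992 CPM. Of these, Dpt and Fap had 0 counts in KO replicate 2. Their part in these results was not tested, and in sorted bulk cells a change in cell number and in RNA per cell cannot be told apart.

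**Figure D4:**
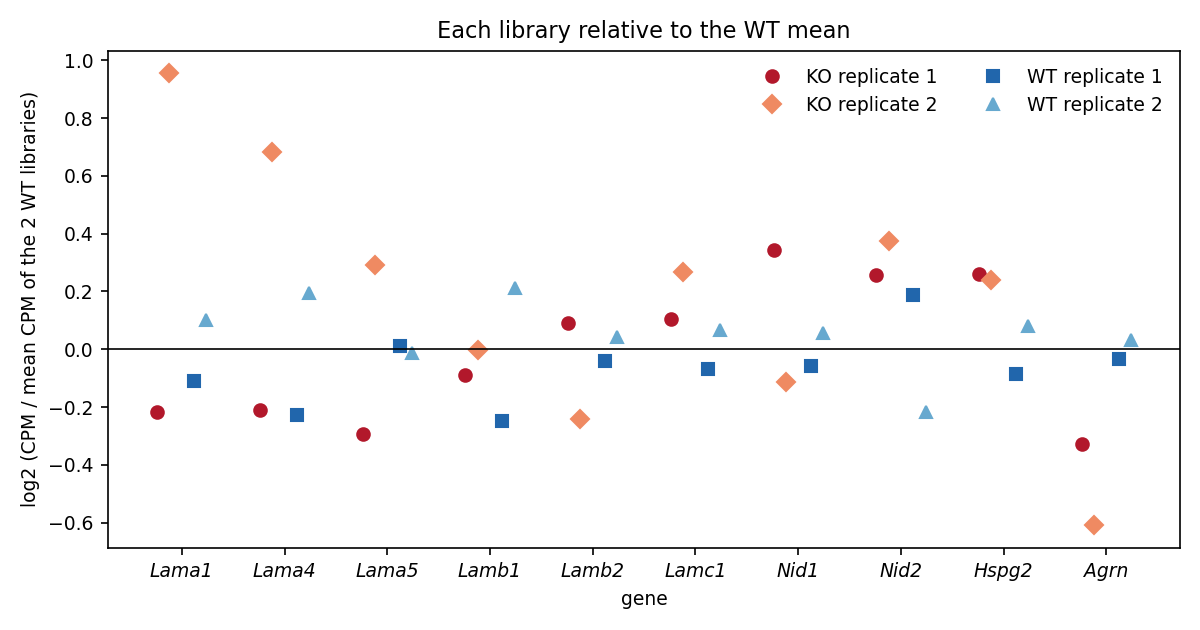
Log2 of the CPM in each library over the mean of the 2 WT libraries, for the 10 genes, 1 point per library. For Lama1, Lama4 and Lama5 KO replicate 1 is below 0 and KO replicate 2 above, at 0.96, 0.68 and 0.29, while for Hspg2 both KO points are near 0.25 and for Agrn both are negative.

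The beta chains and nidogen 1 did not part the genotypes. Lamb1 (ENSMUSG00000002900, chromosome 12), the beta chain of most epithelial laminins, had 236 and 251 CPM in KO and 211 and 291 CPM in WT, so both KO libraries lay between the WT ones. Lamb2 (ENSMUSG00000052911, chromosome 9), the beta chain best known from the nerve-muscle junction and the kidney filter, had 92.9 and 73.8 CPM in KO and 84.7 and 89.8 CPM in WT. Their log2 fold changes were -0.05 ± 0.24 and -0.07 ± 0.28, and without KO replicate 2 they were -0.09 ± 0.22 and 0.09 ± 0.21. Per kb, Lamb1 exceeded Lamb2 by 1.55 and 2.08 times in KO and 1.53 and 1.99 times in WT.

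Nid1 (ENSMUSG00000005397, chromosome 13), the main nidogen and the bridge from laminin to type IV collagen, had 277 and 202 CPM in KO and 210 and 227 CPM in WT. KO replicate 1 was the highest library and KO replicate 2 the lowest. The log2 fold change was 0.13 ± 0.24, and 0.35 ± 0.16 without KO replicate 2. Nid2 (ENSMUSG00000021806, chromosome 14), the related nidogen that can take over part of this role, was scarce, with 358 and 258 counts in KO and 306 and 244 counts in WT. That is 5.69 and 6.18 CPM in KO and 5.43 and 4.10 CPM in WT, with a log2 fold change of 0.32 ± 0.96, and 0.26 ± 0.63 without KO replicate 2. It lies in the abundance range where KO replicate 2 lost many genes, and its exons overlap those of Rtraf on the other strand, which had 1129 and 191 counts in KO and 1109 and 687 in WT. Since the strand setting is not given, reads of Nid2 and Rtraf cannot be told apart where they overlap.

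KO replicate 1 and KO replicate 2 fell on opposite sides of the WT mean in 5 of the 10 genes (Lama1, Lama4, Lama5, Lamb2 and Nid1). Among all tested genes the share was 45.1%, and among those with a mean of 50 CPM or more 47.1%. For the 9 basement membrane genes in that range the median absolute log2 difference was 0.33 between the KO libraries and 0.13 between the WT libraries. For all 3634 genes in that range the medians were 0.50 and 0.16. Lama1 had the widest gap between KO libraries of the 10 genes, 1.17 on the log2 scale, and 14.5% of the 3634 genes had a wider one. Hspg2 had the narrowest, -0.02, and 97.7% had a wider one.

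**Figure D5:**
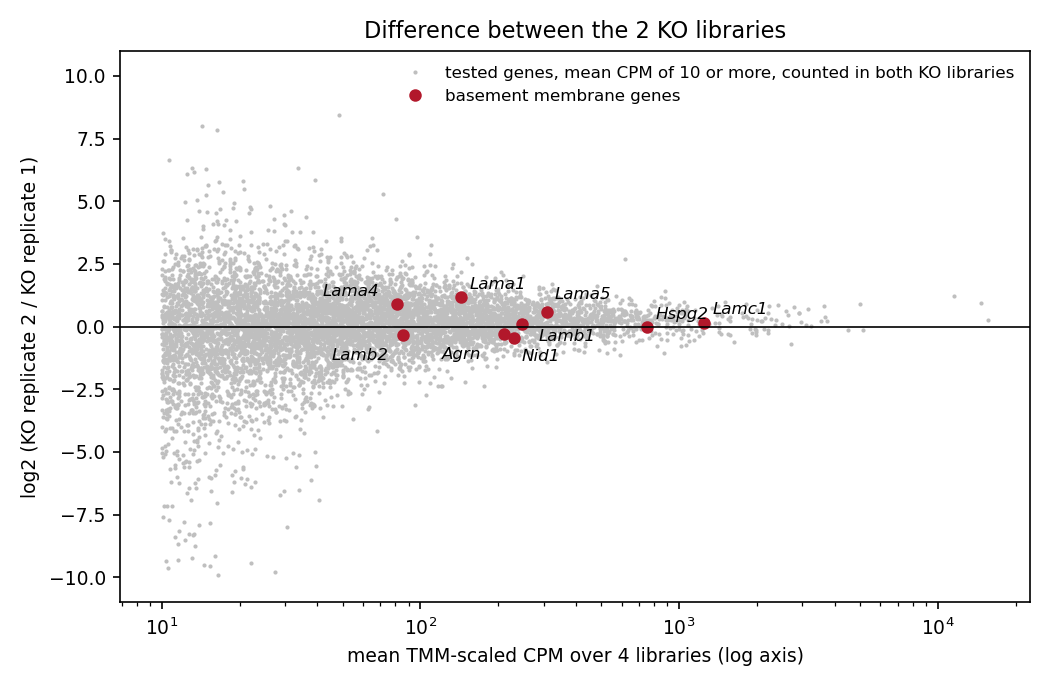
Log2 ratio of KO replicate 2 to KO replicate 1 against mean TMM-scaled CPM over 4 libraries (log axis) for 7326 tested genes with a mean of 10 CPM or more and a count in both KO libraries (grey), with the 9 basement membrane genes in that range in red. Lama1, at 1.17, lies highest of the 9 and Nid1, at -0.46, lowest, all within the spread of genes of like abundance.

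With KO replicate 2 as the only KO library, edgeR called 2 of the 10 genes, Lama1 higher (log2 fold change 0.95 ± 0.19, adjusted p of 0.0106) and Agrn lower (-0.61 ± 0.18, adjusted p of 0.0338). In that fit 34.9% of all tested genes were called, 12.4% higher and 22.5% lower. The set of 10 genes is too small to tell its share apart from that of all tested genes. At an unadjusted p under 0.05 it held 3 of the 10, against 46.9% of all tested genes. Across all alternatives the adjusted p of Lama1 ran from 0.0106 to 1.0 and that of Agrn from 0.0338 to 1.0.

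Other genes of the basement membrane and its assembly were read from 7 lists with 91 entries, of which 82 were in the files and 80 tested. By the edgeR test 0 of 80 passed in either direction at an adjusted p under 0.05, and 39 fold changes were positive and 41 negative. At an unadjusted p under 0.05 there was 1, against 0.957% of all genes: the collagen receptor chain Itga2 (p of 0.00232), named after its values were seen. The median log2 fold change of each list is given below, with and without KO replicate 2. The lists were not matched to all tested genes for abundance.

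Lama3, the alpha chain of the hemidesmosome laminin, was lowest in KO replicate 2. It had 1085 and 784 CPM in KO and 1086 and 1101 CPM in WT, so KO replicate 1 lay just below WT. Lamb3, the beta chain of that laminin, had 266 and 235 CPM in KO and 255 and 256 CPM in WT. The list of other laminin and netrin chains had 2 of 6 positive and a median of -0.13, which was -0.03 without KO replicate 2.

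Type IV collagen forms the other network of the sheet. Col4a2 had 703 and 932 CPM in KO and 604 and 738 CPM in WT, and Col4a1 had 544 and 627 CPM in KO and 550 and 729 CPM in WT, with overlapping libraries in both. These basement membrane collagens had 5 of 9 positive and a median of 0.05, which was 0.02 without KO replicate 2. Among the other basement membrane proteins, 7 of 14 were positive (median 0.04, and -0.02 without KO replicate 2). Hmcn1, hemicentin, had 228 and 286 CPM in KO and 188 and 191 CPM in WT, and Fbln2, fibulin 2, had 228 and 263 CPM in KO and 184 and 195 CPM in WT. Both had each KO library above each WT library, as in 23.2% of tested genes with a mean of 50 CPM or more, and neither passed the test. In this list of 14 genes, 3 lay above and 2 below. The log2 fold changes were 0.43 ± 0.22 for Hmcn1 and 0.37 ± 0.21 for Fbln2, and 0.27 ± 0.17 each without KO replicate 2.

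Receptors for laminin, agrin and perlecan had 8 of 13 tested members positive and a median of 0.07, the same without KO replicate 2. The receptor chains Itga3 and Itgb4 were listed but not found in the files. Itga6, the integrin alpha 6 chain that binds laminin, had 2497 and 2636 CPM in KO and 2212 and 2020 CPM in WT (log2 fold change 0.28 ± 0.17, and 0.24 ± 0.10 without KO replicate 2). Itgb1, its beta 1 partner, had 1346 and 1823 CPM in KO and 1323 and 1373 CPM in WT. Heparan sulfate enzymes, which build the sugar chains of perlecan and agrin, had 6 of 17 positive (median -0.18, and -0.06 without KO replicate 2). Ext1, a polymerase of that chain, had 392 and 416 CPM in KO and 397 and 409 CPM in WT. Dystroglycan glycosylation enzymes, which make the sugar that agrin and laminin bind, had 6 of 11 positive (median 0.43, and -0.09 without KO replicate 2), and collagen folding factors 5 of 10 (median 0.16, and 0.12 without KO replicate 2).

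The genes whose profile over the 4 libraries was most like that of the summed set were Lrrc8c, Supt5, Xpr1, Rpl37a and Elf1. Likeness was the root mean square distance of centred log2 CPM, which ran from 0.02 for Lrrc8c to 0.03 for Elf1. Of 2164 candidate genes with a mean of 100 CPM or more, 249 lay within 0.1, so such a profile is common with 4 libraries.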

How the data were processed

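Each library has a deposited file of raw read counts by Ensembl gene identifier. The authors used TopHat2 (2.02) and HTSeq with the NCBIM37 (mm9) build, per the submitters' processing notes. RNA came from a PicoPure kit and libraries from NuGEN and Illumina protocols, per the labels' protocols. The sources used here give neither annotation release nor strand setting. Summary rows (5 per file) were left out. They held reads outside features, 57.9% and 61.5% of counted lines in KO and 61.4% and 57.6% in WT, and ambiguous reads, under 1%.

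Symbols, exon lengths and 3' UTRs came from GENCODE M21 (GRCm38), matched on gene identifiers (30082 rows, 86.9%). This is a later build than that of the counts.

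The test was the quasi-likelihood test of genotype in edgeR 4.0.16 (R 4.3.3; filterByExpr, TMM, no block), and p-values were adjusted over all tested genes. The SE is the log2 fold change divided by the square root of F. DESeq2 1.42.0, limma 3.58.1 (voom), other scalings and filters, a replicate block and each library left out were alternatives. A fit that leaves 1 library in a group takes its spread from the other group and assumes that the lone library varies alike. Tables used Python 3.11.15, pandas 2.3.3 and numpy 2.4.6.

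Gene counts per library of 47953972 to 60030932 limit precision by counting, and a count of 0 allows up to 3 counts, for counting error only. The members and lists were chosen with earlier results of these data known. All 10 genes are named. Of the lists, the text draws on the 3 genes with the highest mean CPM, and of marker lists on the 2 highest. The rest of that choice (Col4a5, Pxdn, Sdc4, Ndst1, Hs2st1, Serpinh1, Tgm2 and Colgalt1) did not pass the test, and some genes of that choice are not reported here. Markers of luminal cells (11 of 12 in the files), adipocytes (6 of 6) and immune cells (10 of 10) summed to 1164 and 1789, 111 and 226, and 107 and 319 CPM in KO, and to 1060 and 1554, 89.7 and 97.2, and 73.7 and 164 CPM in WT. The 10 basal markers in the files, of 12 listed, summed to 12313 and 10092 CPM in KO and 10051 and 9660 CPM in WT.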

Additional observations from a re-analysis of the deposited data

How the results depend on the processing

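Over all genes 0 were called by edgeR under every scaling, filter and block tried and by limma voom, 4 by DESeq2, and 0 to 5724 with 1 library left out, the most without KO replicate 1 and 5 each without WT replicate 1 or WT replicate 2. Of the 10 basement membrane genes 0 were called under each setting except the fit without KO replicate 1, for a range of 0 to 2 with 1 library left out. Hspg2, Lamc1, Nid2 and Agrn kept 1 sign in all 12 alternatives. Of 120 values, 11 changed sign. With 1 library left out the log2 fold change ran from -0.21 to 0.95 for Lama1, -0.21 to 0.68 for Lama4, -0.29 to 0.29 for Lama5, -0.26 to 0.21 for Lamb1, -0.25 to 0.094 for Lamb2 and -0.12 to 0.35 for Nid1. Lama5, at 0.03, was also -0.11 with upper quartile scaling, -0.13 with total count scaling, -0.032 at a mean CPM of 5 or more, -0.040 with limma voom and -0.0018 with the replicate block. The cause was not tested. The log2 ratio of the summed CPM was 0.13, but 0.018 with upper quartile scaling and 0.0016 with total count scaling. The median of long abundant genes was 0.10, and -0.03 without KO replicate 2. The summed ratio moved under each alternative by less than the spread of the summed log2 CPM between libraries, 0.15. That spread is as wide as the ratio itself, so the ratio is not settled. The median of long abundant genes changed sign without KO replicate 2. By the longest transcript, and again by coding length, 5 of 10 ranks per length were kept. The 8mer search found the same 1 gene. Same-numbered libraries share only a number, since nothing in the labels ties them and the correlation of their deviations was 0.0099. With the replicate block 0 genes and 0 of the 10 were called, and 60 genes higher and 19 lower in KO had an unadjusted p under 0.05, against 91 and 56 without it. With 2 libraries a group, a p that misses the threshold does not show that levels were alike.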
